A study of Mus musculus with 4 samples.

Results

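The genes described here encode 10 secreted factors known to attract, nourish or support developing T cells, followed through nuclei from floating fat-cell fractions of the mouse thymus and of epigonadal white adipose tissue. They were chosen by gene symbol: Kitl, Flt3l, Il7, Il15, Cxcl12, Ccl25, Ccl19, Bmp4, Fgf7 and Fgf10. These 10 symbols matched 11 of the 32285 gene rows of each RNA matrix, because Ccl19 stands there under 2 gene identifiers, the second of which had 0 UMIs in all groups. All libraries were WT and naïve. The thymic RNA library pooled 6 thymi of C57/BL6 males aged 4 months on standard chow; the epigonadal RNA library also falls under the 4-month males, and the sources do not say how many animals it holds. A joint RNA and chromatin library pooled 16 thymi of C57/BL6 females aged 6 months on the same diet. Its chromatin fragments are used, and its RNA matrix is not analysed here. Thymic capsules were freed of attached fat and digested with DNase I and Collagenase II, and nuclei were isolated from the floating layer.

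T-cell precursors enter the thymus from blood, and stromal cells there guide them with chemokines and keep them alive with cytokines. The stroma is itself maintained by fibroblast growth factors and bone morphogenetic proteins. Thymic epithelium, fibroblasts and endothelium are the classic sources of these ligands, and white fat holds endothelial cells, fibroblasts and macrophages beside its adipocytes.

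The authors labelled RNA nuclei as Ad I (Ia or Ib) or Ad II (IIa, IIb or IIc), all of them named as adipocytes. A label was carried by 365 of 22600 thymic barcodes (616557 of 10054839 UMIs, unique molecular identifiers that each stand for 1 captured RNA molecule) and by 1564 of 5043 epigonadal barcodes (2276808 of 6504841 UMIs). Levels are UMIs per 1000000 nuclear-encoded UMIs (CPM), with the UMIs themselves in parentheses. A sum over nuclei cannot tell fewer nuclei of a type from less RNA per nucleus. The median share of mitochondrial UMIs was 14.7% in labelled thymic and 5.19% in labelled epigonadal nuclei, and the part of this gap in any difference between the libraries was not tested. The libraries shared 147 barcode sequences, 0 of them labelled in both. Each group was 1 library, so there is no replicate check and no p-value, and every 95% interval covers counting error only.

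The label names were set against marker genes before the ligands were read. The summed level of 12 endothelial markers, Pecam1, Cdh5 and Kdr among them, was 12918 CPM in thymic Ad IIa, 13694 in IIb and 11721 in IIc, against 3051 in Ib and 72.3 in Ia, where 10 of the 12 were at 0. In the epigonadal library it was 9523 CPM in Ad IIa and 11731 in IIb, but 540.5 in IIc, 2170 in Ib and 822 in Ia. The summed level of 14 adipocyte markers was 12883 CPM in thymic Ad IIa, 8105 in IIb, 20032 in IIc, 11512 in Ib and 20319 in Ia. Over the epigonadal labels it was 29661 CPM in Ad IIa, 14381 in IIb, 95181 in IIc, 23176 in Ib and 23072 in Ia. These sums do not follow most of their members: in thymic Ad IIa against Ad I, 10 of the 12 adipocyte markers with 10 UMIs were at least 2-fold lower, Adipoq, Plin1 and Lipe among them (median log2 -3.60), and Fabp4, which endothelium can also express, was the 1 that was higher. In epigonadal Ad IIa against Ad I, 6 of 14 were lower and 2, Pparg and Fabp4, higher (median -0.42). Thymic Ad IIa thus goes against its adipocyte name in most of these markers, and Ad IIc held different sums of both lists in the 2 libraries. The summed level of 6 erythroid markers was 25948 CPM (1408 UMIs) in thymic Ad IIc and 393 (203) in epigonadal IIc. Labels are therefore used below as names of barcode sets. Of 12 thymic epithelial markers, 10 to 12 were at 0 in each thymic label, Foxn1, Psmb11 and Prss16 in all of them.

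The chromatin data bear on the start sites of some ligands, and these stretches are shown first, from RefSeq on GRCm38.p6. Each holds 300 bases, from 250 before to 50 after the start, on the gene's own strand. Capitals mark matches, on either strand, to the TATA box (TATAAA), the CCAAT box (CCAAT), the GC box (GGGCGG), the E-box (CACGTG), AP-1 (TGACTCA), ETS (ACCGGAAGT), forkhead (TGTTTAC) and DR1 letters. Kitl (chr10:100015571-100015870, plus strand) is shown because its start window held more fragments in one chromatin label than in the other. The Kitl start used here is base 100015821, while the gene span given below begins upstream of it, at base 100015615. Fgf10 (chr13:118714449-118714748, plus strand) is shown for a start window with fragments in both labels. Ccl25 has a first start (chr8:4324960-4325259, plus strand) where its start-site fragments lay, and a second start (chr8:4349338-4349637, plus strand) that held almost none.
Kitl: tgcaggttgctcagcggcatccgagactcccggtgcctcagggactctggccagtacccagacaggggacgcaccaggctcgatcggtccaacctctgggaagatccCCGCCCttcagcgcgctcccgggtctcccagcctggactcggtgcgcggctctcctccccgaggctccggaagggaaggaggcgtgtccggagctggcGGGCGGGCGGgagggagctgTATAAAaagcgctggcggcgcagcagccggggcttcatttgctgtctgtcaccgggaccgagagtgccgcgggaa
Fgf10: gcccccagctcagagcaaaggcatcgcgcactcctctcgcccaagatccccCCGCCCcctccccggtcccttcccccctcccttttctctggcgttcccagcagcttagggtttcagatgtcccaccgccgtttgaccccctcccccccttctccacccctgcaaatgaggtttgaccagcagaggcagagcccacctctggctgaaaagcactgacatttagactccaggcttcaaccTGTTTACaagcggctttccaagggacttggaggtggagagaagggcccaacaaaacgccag
Ccl25 first start: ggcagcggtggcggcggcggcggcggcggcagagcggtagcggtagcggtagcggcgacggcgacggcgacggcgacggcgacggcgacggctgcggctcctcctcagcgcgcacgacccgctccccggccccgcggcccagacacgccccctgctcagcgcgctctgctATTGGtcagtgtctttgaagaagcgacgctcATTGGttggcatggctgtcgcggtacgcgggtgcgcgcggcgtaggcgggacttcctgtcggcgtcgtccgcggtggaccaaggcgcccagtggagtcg
Ccl25 second start: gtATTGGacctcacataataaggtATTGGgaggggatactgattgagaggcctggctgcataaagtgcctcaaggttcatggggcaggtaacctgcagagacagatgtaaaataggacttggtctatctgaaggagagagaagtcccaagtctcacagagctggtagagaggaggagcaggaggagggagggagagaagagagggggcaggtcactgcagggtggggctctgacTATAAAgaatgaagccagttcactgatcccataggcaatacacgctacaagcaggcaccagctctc

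RefSeq starts were matched for 8 of the 10 genes, 9 starts in all; Il7 and Il15 had no entry. The Kitl stretch has a TATA box whose first base lies at -25, with the start site counted as 0, and GC boxes at -143, -45 and -41, of which the last pair overlap. Over all 32851 stretches of this length, 13.6% held the TATA letters, 37.4% the CCAAT letters and 35.7% the GC box. Fgf10 has a GC box at -199 and the forkhead letters, found in 3.65% of stretches, at -11. The first Ccl25 start has 74.0% G and C, 52 CG pairs and CCAAT letters at -80 and -49. The second has 51.7% G and C, 1 CG pair, a TATA box at -16 and CCAAT letters at -248 and -226. The medians over all stretches are 52.7% and 7 CG pairs. The E-box (7.15% of stretches) was in the Bmp4 window among the 9, and AP-1 (5.2%), ETS (1.1%) and DR1 (0.0244%) letters were in none of them. A match is a run of letters and no measure of binding.

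Kitl (ENSMUSG00000019966, chr10:100015615-100100416 on GRCm38, as for the positions below) encodes stem cell factor, the ligand of the receptor Kit on blood and early T-cell progenitors. Its RNA was high in the labels with high endothelial marker sums, in both libraries. In the thymic library it stood at 1502 CPM in Ad IIa (603 UMIs, interval 1385 to 1627), 1665 in IIb (45), 903 in IIc (49), 325 in Ib (8) and 0 in Ia (0 UMIs, where 3 counts would be 108.5 CPM). In the epigonadal library it stood at 964 CPM in Ad IIa (1193, interval 910.4 to 1021), 1307 in IIb (184, interval 1125 to 1511), 407.5 in Ib (49), 167 in Ia (24) and 50.4 in IIc (26). The thymic IIa and IIb intervals overlapped, epigonadal IIb lay above IIa, and both lay above Ia and Ib in each library. Ad IIc was among the high labels of the thymus and was the lowest of epigonadal fat, as its endothelial marker sum was.

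Kitl RNA was spread over most Ad IIa nuclei. It was detected in 73.6% of 231 thymic nuclei (67.4 to 79.2) and 70.3% of 590 epigonadal nuclei (66.5 to 74.0), whose median depths were 1696 and 1916 UMIs. With each nucleus thinned to 500 UMIs, which left out 2 thymic nuclei, the shares were 43.7% (37.2 to 50.4) and 30.8% (27.1 to 34.8). Unlabelled thymic barcodes with T-cell markers, median depth 877 UMIs, had a thinned share of 0.511%.

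Cxcl12 (ENSMUSG00000061353, chr6:117168535-117181368) encodes the chemokine that binds Cxcr4 on progenitors and thymocytes. Thymic Cxcl12 stood at 269 CPM in Ad IIa (108 UMIs, interval 221 to 325), 259 in IIb (7), 203 in IIc (11), 81.4 in Ib (2) and 0 in Ia (0). Epigonadal Cxcl12 stood at 359 CPM in Ad IIa (444, interval 326 to 394), 618 in IIb (87, interval 495 to 762.5), 83.2 in Ib (10), 44.6 in IIc (23) and 34.8 in Ia (5). Epigonadal IIb lay above IIa beyond counting error, and the 3 thymic Ad II labels had overlapping intervals. Among thinned Ad IIa nuclei, Cxcl12 was detected in 12 of 100 thymic nuclei with Kitl and 16 of 129 without it, and in 25 of 182 and 53 of 408 epigonadal nuclei. The intervals of these shares overlapped widely in each library, so no link between the 2 ligands within a nucleus was detectable at this depth.

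Il15 (ENSMUSG00000031712, chr8:82331624-82403252) encodes a cytokine that supports natural killer and memory T cells and is presented by Il15ra. In the thymic library it stood at 119.6 CPM in Ad IIa (48 UMIs, interval 88.2 to 158.5), 185 in IIb (5), 111 in IIc (6), 40.7 in Ib (1) and 36.1 in Ia (1), and the intervals of all 5 labels overlapped. In the epigonadal library it stood at 70.3 CPM in Ad IIa (87, interval 56.3 to 86.7), 78.2 in IIb (11), 55.7 in Ia (8), 24.9 in Ib (3) and 11.6 in IIc (6, interval 4.27 to 25.3). Epigonadal IIc lay below IIa and IIb. Il15ra was lower in thymic Ad IIa than in thymic Ad I, at 24.9 CPM (10 UMIs) against 268 (14). It was also past 2-fold lower in Ad IIa than in Ad I in the epigonadal library.

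**Figure D1:**
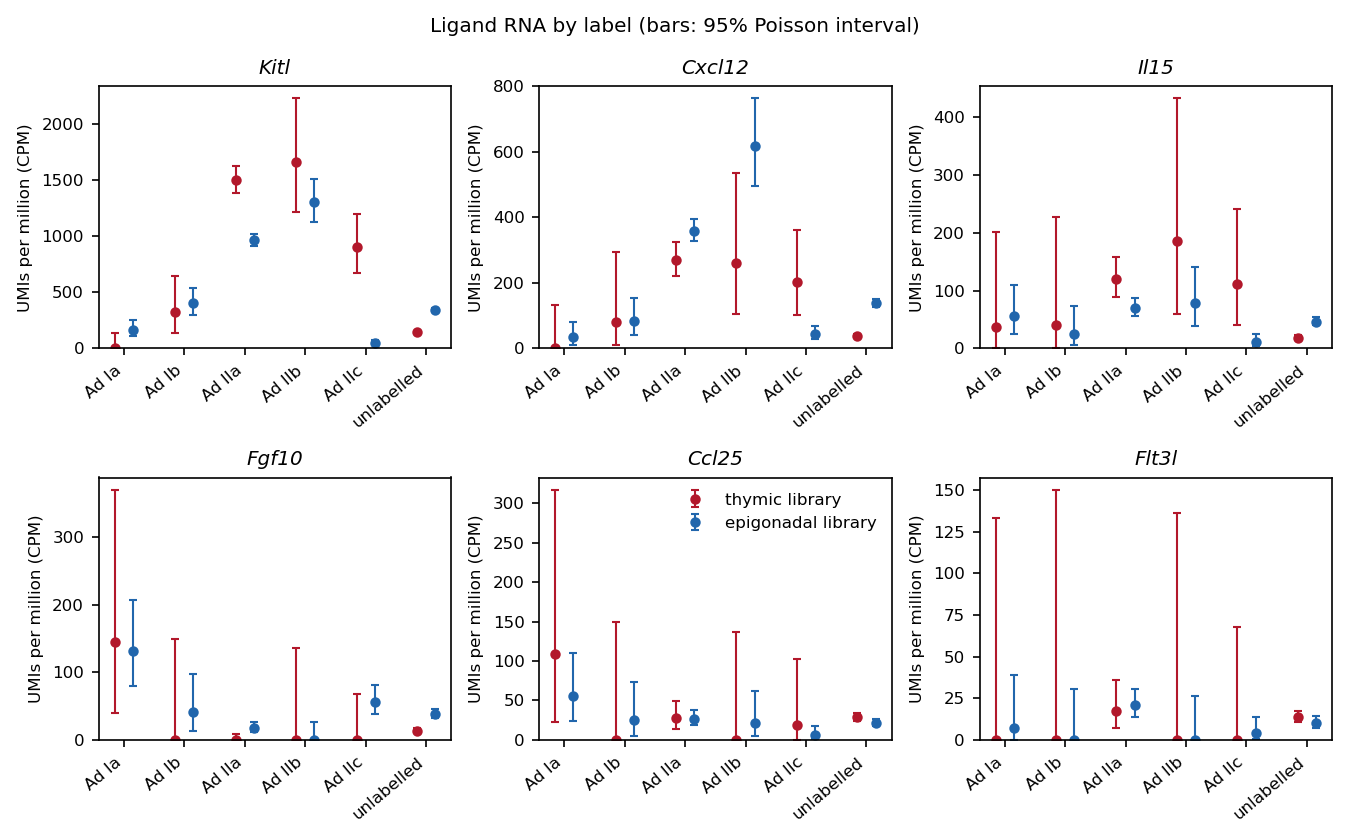
UMIs per 1000000 nuclear-encoded UMIs (vertical axes) of 6 ligands in the 5 labels and in unlabelled barcodes (horizontal axes), red for the thymic and blue for the epigonadal library, with bars for 95% Poisson intervals. Kitl stands at 1502 in thymic and 964 in epigonadal Ad IIa. Of the groups shown, Fgf10 is highest in Ad Ia of both libraries, on 4 UMIs in the thymic one. Its epigonadal Ad Ia interval overlaps those of Ib and IIc.

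Fgf10 (ENSMUSG00000021732, chr13:118714699-118792573) encodes a fibroblast growth factor that acts on epithelium through Fgfr2. Among the 5 labels its highest level was in Ad Ia in both libraries. In the thymic library it stood at 145 CPM in Ad Ia (4 UMIs, in 2 of 35 nuclei) and had 0 UMIs in the other 4 labels, where 3 counts would be 7.47 CPM in Ad IIa, 55.3 in IIc, 111.0 in IIb and 122 in Ib. In the epigonadal library it stood at 132 CPM in Ad Ia (19, interval 79.7 to 207), 56.2 in IIc (29), 41.6 in Ib (5), 17.8 in IIa (22, interval 11.1 to 26.9) and 0 in IIb. The thymic value rests on 2 nuclei and is close to the limits of Ib and IIb, and the epigonadal Ia and IIa intervals did not overlap. The epigonadal Ia interval did overlap those of IIc (37.6 to 80.7) and Ib (13.5 to 97.0). Fgf7, a related factor known from mesenchyme, had 0 UMIs in labelled nuclei of both libraries, where 3 counts would be 5.61 CPM thymic and 1.39 epigonadal. Bmp4, a bone morphogenetic protein that acts on thymic epithelium, had 0 UMIs in labelled thymic and 3 in labelled epigonadal nuclei.

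The remaining ligands were near the limit of detection or near the level of unlabelled barcodes. Il7, the survival cytokine of early thymocytes, and Ccl19, a chemokine that binds Ccr7, had 0 UMIs in labelled thymic nuclei, and 6 and 2 in labelled epigonadal nuclei. Flt3l, the ligand of Flt3 on progenitors, had 7 UMIs in thymic Ad IIa (17.4 CPM), 0 in the other 4 thymic labels and 13.7 CPM in unlabelled thymic barcodes (63). Ccl25, the ligand of Ccr9 on thymocytes, stood at 28.0 CPM in labelled (15) and 28.9 in unlabelled thymic barcodes (133), and at 23.2 (50) and 21.4 (81) in the epigonadal library. Labelled nuclei therefore did not stand above the rest of their library in Ccl25. Of the ligands described before, Fgf10 stood at 7.48 CPM in labelled (4) and 13.25 in unlabelled thymic barcodes (61). In the epigonadal library Fgf10 stood at 34.8 (75) and 38.4 (145), and Il15 at 53.3 (115) and 46.3 (175). The intervals of these labelled over unlabelled ratios include 0.

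At least 1 of the 10 ligands was detected in most Ad IIa nuclei. None was detected in 32 of 231 thymic Ad IIa nuclei, against 72 of 84 thymic Ad I nuclei. The epigonadal counts were 112 of 590 in Ad IIa, 171 of 258 in Ad I and 578 of 658 in IIc. Median depth was lower in Ad I, at 500.5 UMIs thymic and 744.5 epigonadal, and its part in these counts was not tested.

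Ad IIa was set against Ad I in each library, counting a gene as past the threshold at 2-fold or more with at least 10 UMIs over both sides. In the thymic library 4 members had 10 UMIs; 3 were higher in Ad IIa and 1 lower, where 28.2% of all genes were higher, 20.2% lower and 48.5% either. Kitl was higher by 3.21 on the log2 scale (2.31 to 4.51), Cxcl12 by 2.50 (0.93 to 5.88) and Il15 by 1.34 (-0.29 to 4.73). Ccl25 was the lower one, at -1.23 (-2.99 to 1.41) with 11 against 3 UMIs, and the Il15 and Ccl25 intervals include 0. Il15 stayed past the threshold under 9 of 11 alternatives and Ccl25 under 6. The median of the 4 was 1.92, beside 0.08 over all genes. Thymic Ad IIa held 401448 nuclear-encoded UMIs and Ad I 52241, so members met the minimum chiefly through Ad IIa. The count and the median therefore do not describe all 10 members. Fgf10, with 0 against 4 UMIs, fell short of the minimum, though its interval lay below 0 (upper end -2.34). The epigonadal sums were uneven too, at 1237126 and 263848.

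In the epigonadal library 6 members had 10 UMIs; 3 were higher in Ad IIa and 1 lower, where 19.8% of all genes were higher, 17.5% lower and 37.3% either. Kitl stood at 1.79 (1.46 to 2.16), Cxcl12 at 2.61 (1.92 to 3.51) and Flt3l at 1.91 (-0.14 to 7.83). Fgf10 was lower, at -2.35 (-3.26 to -1.46), while Il15 at 0.70 and Ccl25 at -0.69 had intervals that include 0, as that of Flt3l does. Flt3l rests on 26 against 1 UMIs and stayed past the threshold under 9 of 11 alternatives, with 0.14 when 5 UMIs were added to each sum, and Il15 passed it under 2 and Ccl25 under 1. All 12 endothelial markers were higher in Ad IIa too, with median log2 ratios of 3.19 (thymic) and 2.64 (epigonadal). Adipocyte markers moved the other way in the thymus, as given above for 10 of 12. Of 4 T-cell markers there, 3 were lower in Ad IIa and 1, Cd247, was higher (median -1.61). Among epigonadal nuclei, 7 of 8 fibroblast markers (median -1.64) and 8 of 8 macrophage markers (-2.58) were lower in Ad IIa, as Fgf10 was. The part of these other cell types in the ligand differences was not tested.

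**Figure D2:**
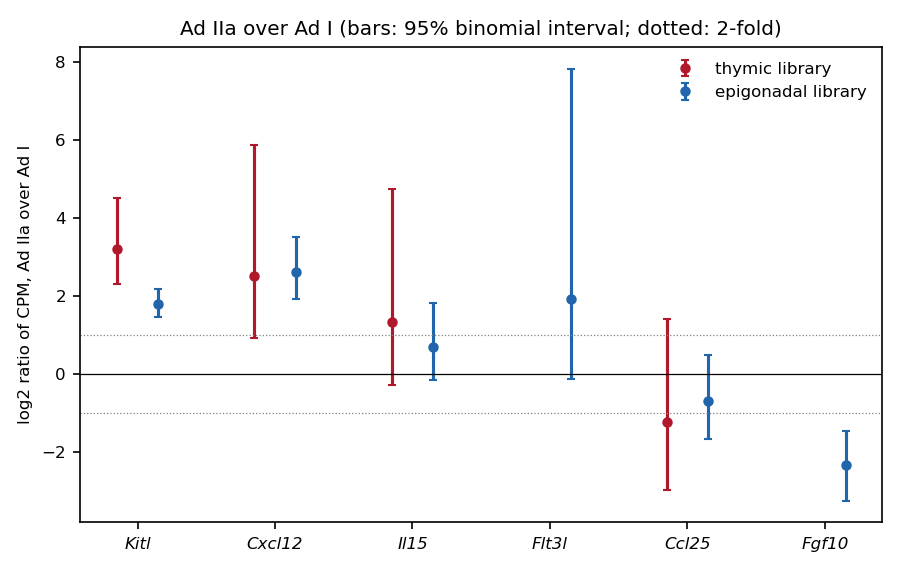
Log2 ratio of CPM in Ad IIa over Ad I (vertical axis) for members with at least 10 UMIs over both sides (horizontal axis), red for the thymic and blue for the epigonadal library, with 95% binomial intervals as bars and 2-fold as dotted lines. Both Kitl intervals and the epigonadal Cxcl12 interval lie above the upper line, and the Fgf10 interval, -3.26 to -1.46, lies below the lower one.

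Over the 10 label sums, the endothelial marker sum had a Spearman rho of 0.976 with Kitl, 0.903 with Il15, 0.830 with Cxcl12, -0.377 with Ccl25 and -0.886 with Fgf10. With the adipocyte marker sum the values were -0.552 for Kitl, -0.685 for Il15, -0.273 for Cxcl12, 0.365 for Ccl25 and 0.718 for Fgf10, on a sum that most of its thymic members do not follow. Fgf10 had 0 UMIs in 5 of the 10 labels, which are tied and have limits at 3 counts from 7.47 to 122 CPM. In the thymic labels other than Ad IIa, Il15 held 1 to 6 UMIs and Ccl25 held 0 to 3. Their ranks there rest on few counts. These points come from only 2 libraries and share their depth, so the coefficients are descriptions. Genes most like Kitl over 12 groups (10 labels and 2 unlabelled sums, 11584 genes compared) were Etl4 (Pearson r 0.991), Rhoj (0.990) and Arhgap31 (0.989). Those most like Cxcl12 were Klf4 (0.973), Cd93 (0.973) and Ptprb (0.972), the last of which is in the endothelial list. Those most like Il15 were Cep85l (0.947), St5 (0.945) and Trpm3 (0.945), and those most like Fgf10 were Dram1 (0.986), Fbxo36 (0.978) and Fsd2 (0.970). Ccl25 was most like Ascc1 (0.966), followed by Fam120b and Gm46430, and Flt3l most like Tgif1 (0.944), followed by 2610301B20Rik and Pramef8.

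**Figure D3:**
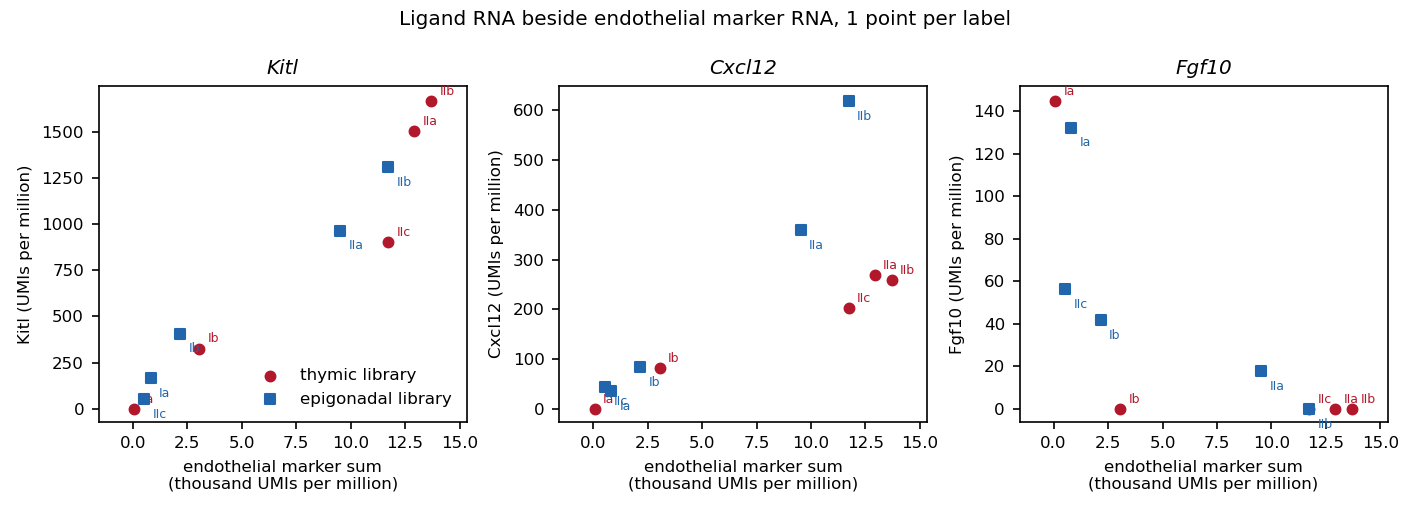
CPM of Kitl, Cxcl12 and Fgf10 (vertical axes) against the summed CPM of 12 endothelial markers, in units of 1000 (horizontal axes), 1 point per label, red circles thymic and blue squares epigonadal. Kitl and Cxcl12 are high where that sum is high, and Fgf10 is highest in the Ad Ia labels, where the sum is 72.3 and 822 CPM. The thymic Ad Ia value of Fgf10 rests on 4 UMIs.

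Thymic and epigonadal nuclei of one label were compared next. In Ad IIa 6 members had 10 UMIs, and 1 passed 2-fold, where 5.44% of all genes were higher in the thymus, 16.2% lower and 21.7% either. That gene was Fgf10, lower in the thymic library with 0 against 22 UMIs. Its bound was 2.38-fold at 3 counts, but the upper end of its interval was log2 -0.83, which is under 2-fold. Fgf10 in epigonadal Ad IIa stood at 17.8 CPM, below the 38.4 CPM of unlabelled epigonadal barcodes. Kitl was 1.56-fold higher in the thymic library (log2 0.64, 0.50 to 0.78) and Il15 1.71-fold higher (0.77, 0.23 to 1.29). Cxcl12 was lower (-0.41, -0.73 to -0.11). These 3 intervals exclude 0 and the differences are under 2-fold, but Il15 stood at 1.58 with nuclei thinned to 500 UMIs. Fgf10 stayed past the threshold under 8 of 10 alternatives. Flt3l at -0.20 and Ccl25 at 0.08 had intervals that include 0, and the median of the 6 was -0.06, beside -0.02 over all genes.

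Markers of other cells moved with this comparison. All 12 endothelial markers stayed within 2-fold, with a median of 0.42 toward the thymus, while 10 of 14 adipocyte markers were lower in thymic Ad IIa. The fibroblast marker sum was 32.4 CPM in thymic Ad IIa, with 7 of 11 markers at 0, and 297.5 in the epigonadal one. Macrophage markers (6 of 6, median -3.23) and mural markers (3 of 4, -2.05) were also lower, and 4 of 4 erythroid markers were higher (1.93); their part in the ligand differences was not tested. Per 1000 endothelial marker UMIs, Kitl stood at 116 thymic and 101 epigonadal (log2 0.20, 0.06 to 0.34) and Il15 at 9.26 and 7.38 (0.33, -0.21 to 0.85). Cxcl12 stood at 20.8 and 37.7 (-0.85, -1.17 to -0.55). On that scale the Kitl difference was smaller, the Il15 interval included 0, and the Cxcl12 difference was larger. The unlabelled profile was also subtracted at a share set by the summed T-cell markers, which was 6.08% of thymic and 40.5% of epigonadal Ad IIa UMIs. In epigonadal Ad IIa 10 of these 12 markers had 0 UMIs, which leaves Themis and Cd247. Cd247 was past 2-fold higher in Ad IIa than in Ad I in both libraries (epigonadal log2 2.67). The shares therefore cannot be read as RNA from outside the nuclei. With this subtraction Kitl stood at 0.20, Il15 at 0.55 and Cxcl12 at -0.83, values that rest on those shares and are no correction for outside RNA.

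In Ad I, 5 members had 10 UMIs and 0 passed 2-fold, where 15.2% of all genes were higher in the thymus, 17% lower and 32.2% either. Kitl stood at -0.78 (-2.12 to 0.20) with 8 against 73 UMIs, and passed 2-fold under 4 of 11 alternatives. Its values there were -1.11 with TMM or DESeq2 scaling, -1.66 with equal weight per nucleus and -3.24 with Ad Ia only. With Ad Ia only, Ccl25 passed in the other direction, as higher in the thymus. In Ad Ia, Kitl had 0 thymic against 24 epigonadal UMIs. There 3 thymic counts would be 108.5 CPM against 167 epigonadal, a bound under 2-fold. Ccl25 had 3 against 8 UMIs in Ad Ia, at 108.5 thymic against 55.7 epigonadal CPM. Fgf10 stood at -0.11 (-2.24 to 1.29) with 4 against 24. Il15, Cxcl12 and Ccl25 also had intervals that include 0. With 52241 nuclear-encoded UMIs in thymic Ad I, a 2-fold difference in Fgf10 was not detectable in either direction. Fibroblast (5 of 6) and macrophage (6 of 6) markers were lower in thymic Ad I, and their part was not tested.

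Labelled nuclei were set against the unlabelled barcodes of their own library. Unlabelled thymic barcodes had a median of 308 UMIs, with 4603069 of 9438282 UMIs nuclear-encoded, against 1479 and 534972 of 616557 in labelled nuclei. The epigonadal values were 794 and 3777938 of 4228033 in unlabelled, against 966 and 2157889 of 2276808 in labelled barcodes. The part of depth and mitochondrial share in these ratios was not tested. In the thymic library 3 of 6 members were higher and 0 lower, where 16.6% of all genes were higher, 23.8% lower and 40.4% either. They were Kitl (log2 3.20, 3.04 to 3.35), Cxcl12 (2.67, 2.33 to 3.01) and Il15 (2.63, 2.13 to 3.12). All 12 endothelial markers were higher in labelled thymic nuclei too (median 3.24), and 12 of 12 T-cell markers (-3.77) and 9 of 11 fibroblast markers (-4.08) were lower. In the epigonadal library 1 of 10 members was higher and 3 lower, where 5.08% of all genes were higher, 14.9% lower and 20% either. Kitl was the higher one (1.01, 0.90 to 1.12), and was under 2-fold in 2 of 8 alternatives, at 0.91 in nuclei with at least 1000 UMIs and 0.97 scaled without Gm42418, AY036118 and Malat1, a scaling chosen after seeing the data. Fgf7 was lower in labelled nuclei, with 0 against 29 UMIs. Its bound was 5.52-fold at 3 counts, and the upper end of its interval was log2 -2.07. Ccl19 had 2 against 17 UMIs (interval -5.44 to -0.21), and Bmp4 stood at -1.34 (-3.94 to 0.31), which includes 0. Ccl19 stayed past the threshold under 6 of 8 alternatives and Bmp4 under 5. There 11 of 12 endothelial markers were higher (median 1.24), and 9 of 11 fibroblast markers (-2.01) and 10 of 10 macrophage markers (-2.57) were lower. The part of these markers' cells in the ligand differences was not tested.

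Unlabelled barcodes were sorted by their own markers: a barcode joined the list of which it held most genes, if it held at least 3. Such a group is a range of a marker count and not a cell type. Kitl stood at 1229 CPM (369 UMIs) in the 312 thymic barcodes of the endothelial group and 1059 (272) in the 65 epigonadal ones. It stood at 7.81 CPM (8) in the 1238 thymic barcodes of the T-cell group. Cxcl12 stood at 260 (78) and 444 (114) in the endothelial groups and had 0 UMIs in the thymic T-cell group. The epigonadal endothelial group also held a median of 7 adipocyte markers per barcode beside 10 endothelial ones. Il15 was highest in the epigonadal macrophage group among the 6 groups plotted, at 195.8 CPM (40, interval 139.8 to 267).

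Among the 6 groups of unlabelled barcodes plotted, the fibroblast growth factors were highest in the fibroblast groups. In labelled Ad Ia, Fgf10 was at 145 CPM thymic (4 UMIs) and 132 epigonadal. In the fibroblast groups Fgf10 stood at 150.4 CPM (13 UMIs, interval 80.1 to 257) in 61 thymic barcodes and 101 (23, interval 64.1 to 152) in 146 epigonadal ones. It stood at 29.2 (13) and 46.9 (109) in the adipocyte groups. Fgf7 stood at 46.3 (4) and 92.4 (21) in the fibroblast groups and at 0 and 1.72 (4) in the adipocyte groups. Ccl19 had 3 thymic and 7 epigonadal UMIs in the fibroblast groups, and Bmp4 had 0 and 4. Ccl25 was at 32.2 CPM (33) in the thymic T-cell group, within the intervals of the other thymic groups plotted. The thymic epithelial list was met by 0 thymic barcodes, so ligand levels in epithelium could not be read.

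**Figure D4:**
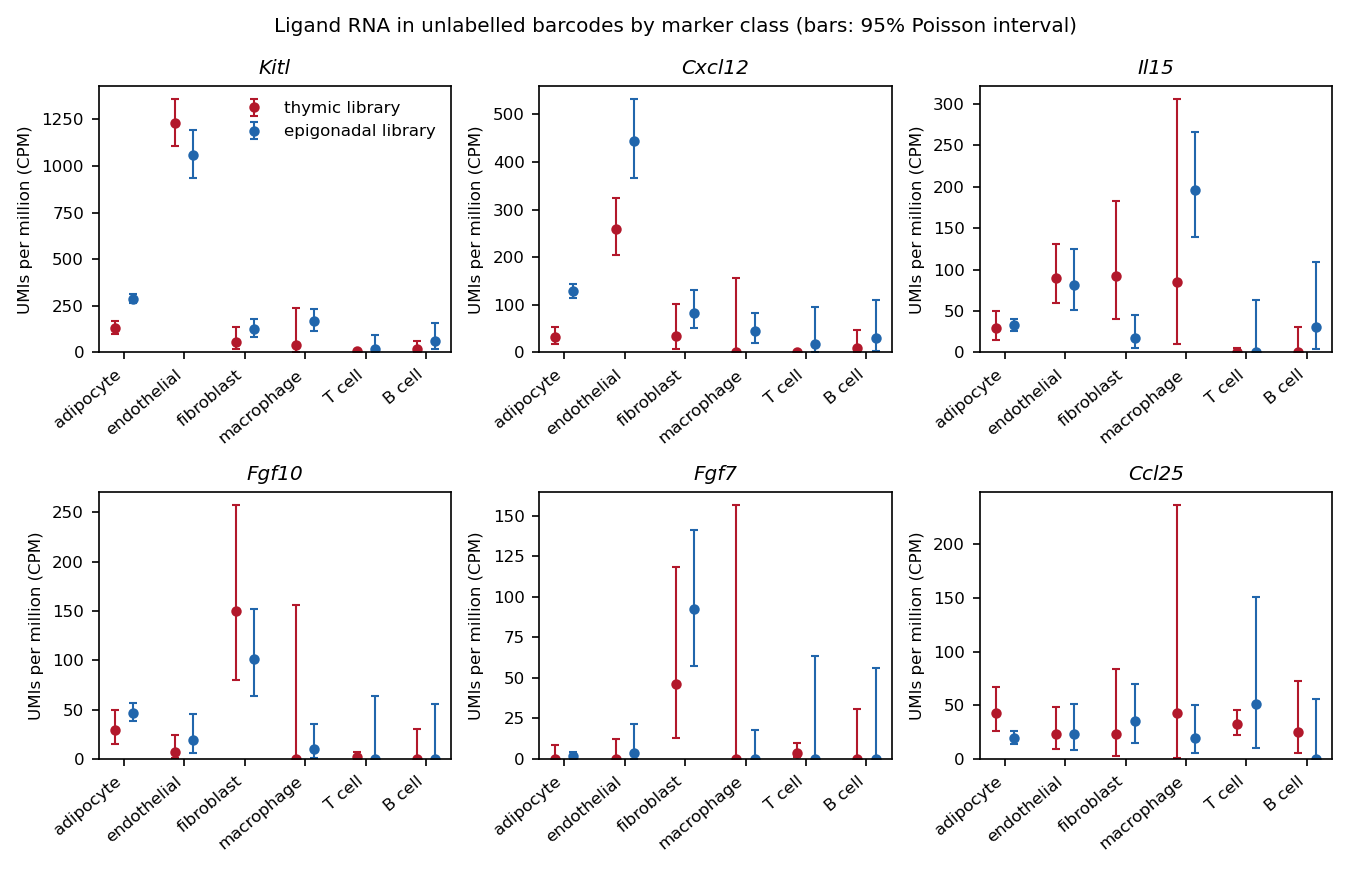
CPM of 6 ligands (vertical axes) in unlabelled barcodes sorted into 6 marker groups (horizontal axes), red for the thymic and blue for the epigonadal library, with 95% Poisson intervals. Kitl (1229 and 1059) and Cxcl12 peak in the endothelial group, Fgf10 and Fgf7 in the fibroblast group, and the Ccl25 intervals of the thymic groups overlap.

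Receptors of these ligands were followed as a list of 18. In the thymic T-cell group Ccr9 stood at 462.5 CPM (474 UMIs), Il7r at 186 (191), Cxcr4 at 62.5 (64) and Kit at 8.78 (9). Of 9 receptors with 10 UMIs in thymic Ad IIa and Ad I, 3 were higher in Ad IIa: Bmpr2 (log2 1.65), Acvr1 (1.05, -0.21 to 3.12, which includes 0) and Acvr2a (1.18), all receptors of bone morphogenetic proteins. A further 4 were lower, Il15ra (-3.41), Fgfr1 (-5.88), Fgfr2 (-1.67) and Bmpr1a (0 against 10 UMIs), and the median was -0.54. Over all genes 28.2% were higher and 20.2% lower. In the epigonadal library 1 of 10 was higher in Ad IIa, Bmpr2, and 3 were lower, Il15ra, Bmpr1a and Fgfr1. There 19.8% of all genes were higher and 17.5% lower. Between the libraries in Ad IIa, 2 of 10 receptors were higher in the thymus, Ackr3, another receptor of Cxcl12 (44.8 against 11.3 CPM, log2 1.98, 0.90 to 3.11), and Acvr2a (411 against 201 CPM, 1.03), where 5.44% of all genes were higher and 16.2% lower. Fgfr1 was lower, with 1 against 29 UMIs (-8.59 to -0.64). Il2rg (1 against 10 UMIs) and Bmpr1a (0 against 10) were fitted as lower, but the Il2rg interval includes 0 and the bound of Bmpr1a at 3 counts is under 2-fold.

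Among 41 other ligands of the thymic niche, 9 had 10 UMIs in thymic Ad IIa and Ad I. Bmp6, a bone morphogenetic protein, was higher in Ad IIa, at 1756 CPM (705 UMIs) against 249 (13) in Ad I (log2 2.77, 2.04 to 3.74). Cxcl9, Jag2 and Tgfb1 were fitted as higher against 0 UMIs in Ad I, and their bounds at 3 counts are under 2-fold. Jag1 (-1.78), Igf1 (-5.18) and Vegfa (-5.75) were lower. The median of the 9 was 0.84 as fitted and -0.36 with those 3 at their bounds. In the epigonadal library 7 of 17 were higher in Ad IIa, Bmp6, Cxcl9 and Jag2 among them. A further 6 were lower, Igf1 and Vegfa among them, and Jag1 and Tgfb1 were in neither count. There 19.8% of all genes were higher and 17.5% lower. Between the libraries in Ad IIa, 1 of 14 was higher in the thymus, the Notch ligand Dll4 (84.7 against 38.0 CPM, 1.16, 0.48 to 1.82). Igf1 (3 against 184 UMIs, -6.61 to -2.75) and Gas6 (10 against 79, -2.47 to -0.40) were lower, and Vcam1 (0 against 14) had a bound under 2-fold. These counts of 1 and 3 of 14 are near the shares over all genes, 5.44% higher and 16.2% lower. Of 6 antagonists and processing factors in that comparison, 0 were higher and 2 lower, Chrdl1 (1 against 27 UMIs, -8.49 to -0.53) and Twsg1 (3 against 23, -3.69 to 0.41).

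Chromatin was read in 317 nuclei of the 6-month thymi, with 4397902 fragments, as fragments over the gene body and its 2 kb flanks. The authors' labels were thyAD I (146 nuclei), thyAD II (140) and Immune (31). They may have been made with the same fragments, so the values describe the labels. Of 9 members with 10 fragments, 3 were past 1.5-fold higher in thyAD II than in thyAD I and 1 lower, where 12.1% of all genes were higher, 8.66% lower and 20.8% either. Kitl had 112 against 39 fragments (log2 1.10, 0.57 to 1.68), Fgf7 55 against 16 (1.34, 0.55 to 2.27) and Cxcl12 42 against 19 (0.71, -0.08 to 1.60). Bmp4 was lower, with 26 against 39 (-0.99, -1.77 to -0.24). Fgf7, Cxcl12 and Bmp4 each stayed past the threshold under 5 of 6 alternatives. Fgf10, with 130 against 69, stayed within 1.5-fold (0.50, 0.07 to 0.95).

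The RNA and chromatin labels were not set against each other, since the 2 sets of labels come from mice of different sex and age and the correspondence between their names was not tested. The 12 endothelial markers had a median log2 of 0.11 between thyAD II and thyAD I, and 2 of them, Flt1 and Tek, passed 1.5-fold. Il7, Il15, Flt3l and Ccl25 had fragment ratios within 1.5-fold and intervals that include 0. The Ccl19 window held 0 of the 101060606 fragments of the library, so its chromatin could not be read.

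The authors' joint clusters divide the labels: 0 and 4 are thyAD II, 1 and 3 thyAD I, and 2 is Immune. Kitl stood at 56.8 and 42.6 (fragments per 1000000 in the cluster) in clusters 0 and 4, 20.5 and 30.6 in clusters 1 and 3, and 42.8 in cluster 2. Of the first 4, only clusters 0 and 1 had Kitl intervals that did not overlap each other. Fgf7 stood at 31.0 in cluster 0 and 16.1 in cluster 4, against 6.23 in cluster 1 and 17.2 in cluster 3. Clusters 4 and 3, of different labels, therefore had overlapping Fgf7 intervals. Bmp4 stood at 28.5 in cluster 1 and 13.4 in cluster 3, against 9.08 and 16.1 in clusters 0 and 4, and of these 4 only the intervals of clusters 1 and 0 did not overlap. The windows of Fgf7, Bmp4, Il7, Ccl25 and Ccl19 take in other genes, such as Fam227b at Fgf7 and Gm15217 at Bmp4, whose fragments are counted with them.

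At the start sites whose letters are given above, Kitl had 22 thyAD II fragments against 3 of thyAD I (log2 2.27, 0.73 to 4.85), and Fgf10 had 17 and 7 (0.81, -0.47 to 2.38, which includes 0). Over all start-site windows with 10 fragments, 10.9% were past 1.5-fold higher in thyAD II and 10.8% lower. The first Ccl25 start had 51 and 59 (-0.62, -1.19 to -0.06), and the second had 1 and 0. The Elavl1 gene starts 110 bases before the first Ccl25 start on the other strand, and fragments carry no strand, so the signal of these genes cannot be told apart. The Flt3l start had 26 and 25 (-0.36, -1.20 to 0.50), an interval that includes 0. Fgf7 had 6 and 0 fragments at its start, Cxcl12 4 and 2, and Bmp4 0 and 0.

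**Figure D5:**
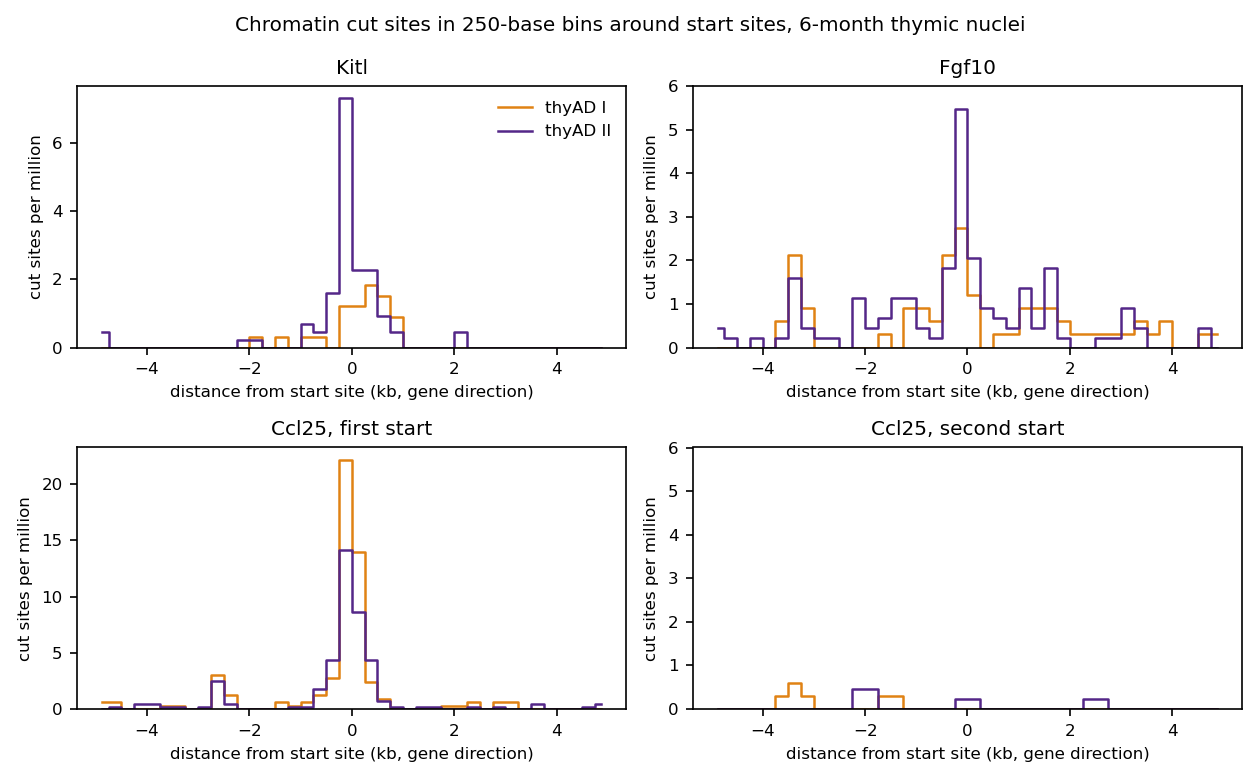
Chromatin cut sites per 1000000 (vertical axes) in 250-base bins by distance from the start site in kb (horizontal axes) for Kitl, Fgf10 and both Ccl25 starts, orange for thyAD I and purple for thyAD II. Kitl is higher in thyAD II in the bin just before the start, as is Fgf10, whose start-site interval includes 0, and the second Ccl25 start has almost no cut sites.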

How the data were processed

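The authors deposited raw UMI counts per gene and barcode, whose file headers name cellranger 7.2.0. The submitters' processing notes name Cell Ranger ARC 2.0.2, Seurat 5.1.0 and mm10; the sources do not state whether introns or strand entered the counting. The deposited tables give, per nucleus, the percent of mitochondrial UMIs, the enrichment ratio at gene starts and the label. The fragment file header names cellranger-arc 2.0.2. The 6-month table used here stops inside row 318, so its 317 complete rows were used. Nuclei were kept with the authors' doublet classes.

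UMIs were summed per label and scaled to nuclear-encoded UMIs. Log2 ratios had 0.5 added to each sum, with exact binomial 95% intervals; levels have Poisson and shares Clopper-Pearson intervals. A group at 0 was set to 3 counts for bounds. The ratio steps were checked on simulated data. Python 3.11.15, scipy 1.17.1, edgeR 4.0.16 and DESeq2 1.42.0 were used, the last 2 for scaling factors alone. The alternatives were other scalings, added counts, minimums, thinning, subtraction of the unlabelled profile at a share set by T-cell markers, label subsets and windows.

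The members and lists were chosen with earlier results of these data known. The rule named all members, receptors where they help, the 3 largest and 3 smallest ratios of each other list with 10 UMIs, and the 3 genes most like each member with 50 UMIs. Tgfb1 fell outside it and was named after its values were seen. The start-site windows and the scaling to endothelial UMIs were also chosen after seeing the data.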

Additional observations from a re-analysis of the deposited data

How the results depend on the processing

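No paired analysis was possible because each group was 1 library. Depth limits the thymic labels other than Ad IIa, whose sums hold 24582 to 54263 nuclear-encoded UMIs. Kitl and Cxcl12 stayed past 2-fold higher in Ad IIa than in Ad I under all 11 alternatives in each library, and Kitl stayed past 1.5-fold in chromatin under all 6. Of 71 recomputed counts of members past the threshold, 56 stayed within 1.5 times the reported count. For the other 15 the cause was not tested, except for 2 effects of the settings themselves. Minimums change which genes are counted, and 5 added UMIs raise the CPM more where a group holds fewer UMIs. Between the libraries in Ad I, 0 became 1 (Kitl) with TMM or DESeq2 scaling, and 2 with equal weight per nucleus, with 5 UMIs added or with Ad Ia only, the last chosen after seeing the data. With 5 UMIs added the 2 were Ccl25 and Il15, both higher in the thymus, and Kitl was not counted. With Ad Ia only, Kitl was counted on 0 thymic UMIs. In Ad IIa, 1 became 0 with 5 UMIs added or a minimum of 30, and 2 with no minimum. Ad IIa over Ad I went from 4 to 2 in the thymus with Ad Ib only in place of Ad I, also chosen later, and from 4 to 7 in epigonadal fat with no minimum. Labelled over unlabelled went from 3 to 6 in the thymus with no minimum, and in epigonadal fat from 4 to 2 when thinned or with 5 UMIs added, and to 1 with a minimum of 30. In chromatin 4 became 2 (Kitl and Flt3l) within 1 kb of both gene ends. Of 434 recomputed single values, 6 changed sign where the reported value was past the threshold: Ccl25 in thymic Ad IIa over Ad I (0.10 in nuclei with 1000 UMIs, 0.49 with Ad Ib only), Il15 there (-0.021 with 5 UMIs added), Bmp4 in epigonadal labelled over unlabelled (0.37 with equal weight, 0.19 thinned) and Bmp4 in chromatin (1.17 at the gene ends). The Bmp4 value at the gene ends rests on fewer than 10 fragments over both sides. Values within the threshold changed sign more often: between the libraries in Ad I, Cxcl12, Fgf10 and Il15 kept theirs under 7 of 11 alternatives and Kitl under 10, and labelled over unlabelled thymic Flt3l under 3 of 8.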
